A study of Mus musculus with 13 samples.

Results

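Red cell membrane and cytoskeleton genes were followed through the injured and recovering thymus. The 8 genes were Slc4a1, Rhag, Kel, Ermap, Epb42, Ank1, Sptb and Tmod1, found by mouse symbol among the 53379 genes of the count table. All 8 were among the 19984 genes that passed a filter on low counts. The genes were chosen from values measured in these same libraries, where low levels after irradiation were already known, so their levels and fold changes are given as a description with no test. Bulk RNA-seq had been made from the CD45- stroma cells of the thymus of wild type C57BL/6 mice, 2 months old, to follow the response to sublethal total body irradiation (SL-TBI). The 4 steady-state libraries came from untreated mice that had been given PBS, and 3 libraries were made for each of days 1, 4 and 7 following SL-TBI. Per the paper's methods, cells for sequencing were depleted of CD45+ hematopoietic cells, treated with a lysis buffer for red cells and then sorted by flow cytometry. The labels do not say whether libraries came from single or pooled mice. Differences between libraries of 1 condition may therefore be technical in part. Nothing in this design limits the RNA to 1 cell type: the stroma fraction holds fibroblasts, endothelium and epithelium, and mature red cells lack CD45.

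The membrane of a mammalian red cell is held up by a network of spectrin and short actin filaments that lies beneath the lipid bilayer. Ankyrin and its partners tie this network to the anion exchanger known as band 3, which sits in one complex with Rh-type proteins and carries several blood group antigens. Most of these proteins are made while erythroblasts mature, under the control of factors such as GATA1 and KLF1, and their loss makes red cells fragile or misshapen. Some of the genes are also used outside the blood, among them Ank1, Sptb and Tmod1 in muscle or brain.

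The 8 genes lie on 7 chromosomes (build GRCm38, GENCODE M21): Slc4a1 (ENSMUSG00000006574) at chr11:102348824-102366203, Rhag (ENSMUSG00000023926) at chr17:40811126-40840754, Kel (ENSMUSG00000029866) at chr6:41686330-41704339, Ermap (ENSMUSG00000028644) at chr4:119175457-119190011, Epb42 (ENSMUSG00000023216) at chr2:121017891-121037072, Ank1 (ENSMUSG00000031543) at chr8:22974844-23150497, Sptb (ENSMUSG00000021061) at chr12:76580488-76710547 and Tmod1 (ENSMUSG00000028328) at chr4:46038935-46116032. Promoters, taken as the 250 bases before to 50 bases after the RefSeq start in GRCm38.p6, were matched for 6 of them (all but Slc4a1 and Ank1). They were read for 3 motifs on both strands: a spaced pair (CTG, then 9 bases of any kind, then GATA) that complexes of TAL1 and GATA1 bind, a GATA word (GATA with A or T before it and A or G after it), and CCNCNCCC, the kind of box that KLF1 binds. The end of the spaced pair can be part of a GATA word. The motifs were chosen with the levels of these genes known.

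The spaced pair was found in 4 of the 6 promoters, those of Rhag, Kel, Ermap and Epb42, and in 2.51% of all 32851 promoters. It was in 2 of 15 promoters of other membrane genes listed here as leaning to red cells. Genes made by many cells had it in 2 of 25 promoters, and paralogs in 0 of 22. GATA words were in 5 of the 6 promoters (29.8% of all), and the KLF1-type box was in 2, Sptb and Tmod1 (49.5% of all). The stretches around the 4 matches are shown for the spaced pair that Rhag, Kel, Ermap and Epb42 have in common. Only its fixed letters, CTG and GATA, are shared, and the bases between and around them differ. The stretches have up to 40 bases on each side, no base past the start, and the spaced pair in capitals. Each is written 5′ to 3′ on the strand of the gene, so that a match on the opposite strand begins with TATC.
Rhag: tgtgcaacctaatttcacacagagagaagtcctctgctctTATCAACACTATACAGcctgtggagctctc
Kel: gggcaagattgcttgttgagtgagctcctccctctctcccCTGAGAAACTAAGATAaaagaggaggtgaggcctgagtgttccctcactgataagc
Ermap: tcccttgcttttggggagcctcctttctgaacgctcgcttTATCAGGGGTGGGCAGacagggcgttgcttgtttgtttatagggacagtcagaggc
Epb42: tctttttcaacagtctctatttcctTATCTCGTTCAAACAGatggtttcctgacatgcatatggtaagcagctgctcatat

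The Rhag stretch is chr17:40811079-40811148 on the plus strand, with the match 30 to 15 bases before the start on the opposite strand. The Kel stretch is chr6:41704337-41704432 on the minus strand, with the match 67 to 52 bases before the start on the strand of the gene. The Ermap stretch is chr4:119190006-119190101 on the minus strand, with the match 66 to 51 bases before the start on the opposite strand. The Epb42 stretch is chr2:121037047-121037127 on the minus strand, with the match 225 to 210 bases before the start on the opposite strand. A match says only that these letters are there, and binding was not measured in these libraries.

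Slc4a1, which encodes band 3, had the highest level of the 8 genes at steady state and the widest swing. Levels are given in CPM, which are counts scaled to the size of the library, here by the TMM method of edgeR, which balances libraries on the bulk of their genes. The 4 steady-state libraries, named here after the day of the PBS control in the count table, held 56.0 CPM (PBS day 1 replicate 2), 31.8 CPM (PBS day 4 replicate 2), 77.4 CPM (PBS day 7 replicate 1) and 43.2 CPM (PBS day 7 replicate 2). Replicates 1 to 3 held 5.32, 1.63 and 1.38 CPM at day 1 and 0.516, 0.0351 and 0.111 CPM at day 4. No library of day 1 or day 4 came near the steady-state range, and the day 4 libraries lay below every day 1 library. At day 7 the same gene was back at 35.3, 108 and 59.1 CPM, a range that overlapped steady state. The fitted log2 fold change against steady state was -4.23 ± 0.70 (SE) at day 1, -8.38 ± 0.92 at day 4 and 0.37 ± 0.58 at day 7. Only 16 counts stood behind the 3 day 4 libraries, against 8316 in the 4 steady-state libraries. From these sums the steady-state level was 430 times that of day 4, with an exact 95% interval of 265 to 753 that covers counting error only.

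Rhag, which encodes the Rh-associated glycoprotein that is needed for the Rh complex to reach the surface, had far fewer counts. The steady-state libraries held 1.67, 0.450, 0.904 and 0.436 CPM, in the order given for Slc4a1. The day 1 libraries held 0.368, 0 and 0.189 CPM and the day 4 libraries 0.0645, 0.0176 and 0.0370 CPM. All 6 of these lay below the lowest steady-state library, but they rest on 22 counts in all at day 1 and on 4 counts at day 4. The ratio of steady state to day 4 was 30.0 (exact 95% interval 11.5 to 112, counting error only), and the fitted log2 fold change at day 1 was -2.14 ± 1.03 (SE). At day 7 the libraries held 0.841, 10.7 and 0.922 CPM. Replicate 2 stood far above the other libraries of the series, while replicates 1 and 3 were inside the steady-state range.

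Kel, the gene of the Kell blood group glycoprotein, a zinc metalloprotease of the red cell surface, followed the same course. It was at 1.32, 0.675, 1.55 and 0.920 CPM at steady state, at 0.311, 0.186 and 0.126 CPM at day 1, and at 0, 0.0527 and 0.0741 CPM at day 4. The 3 conditions did not overlap, and day 4 lay below day 1 as well. The 7 counts of day 4 put the steady-state level at 21.1 times that of day 4 (exact 95% interval 10.01 to 53.1, counting error only), and the fitted log2 fold change at day 1 was -2.42 ± 0.69 (SE). The day 7 libraries held 1.07, 4.51 and 0.895 CPM, so that replicate 2 was again the highest library and the other pair fell within the steady-state range.

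Ermap, which encodes an immunoglobulin-family protein of the erythroblast membrane and carries the Scianna blood group, was the exception among the surface proteins. The steady-state libraries held 0.724, 0.250, 0.624 and 0.194 CPM. The day 1 libraries held 1.30, 0.604 and 0.377 CPM and the day 4 libraries 0.258, 0.158 and 0.333 CPM. Both days overlapped steady state, with day 1 replicate 1 above it and day 4 replicate 2 below it, and the log2 fold changes were 0.72 ± 0.98 (SE) and -0.88 ± 1.06, each smaller than its error. At day 7 the gene was at 0.246, 9.36 and 0.597 CPM. A single library, replicate 2, thus set the log2 fold change of 2.88 ± 0.97 at day 7.

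**Figure D1:**
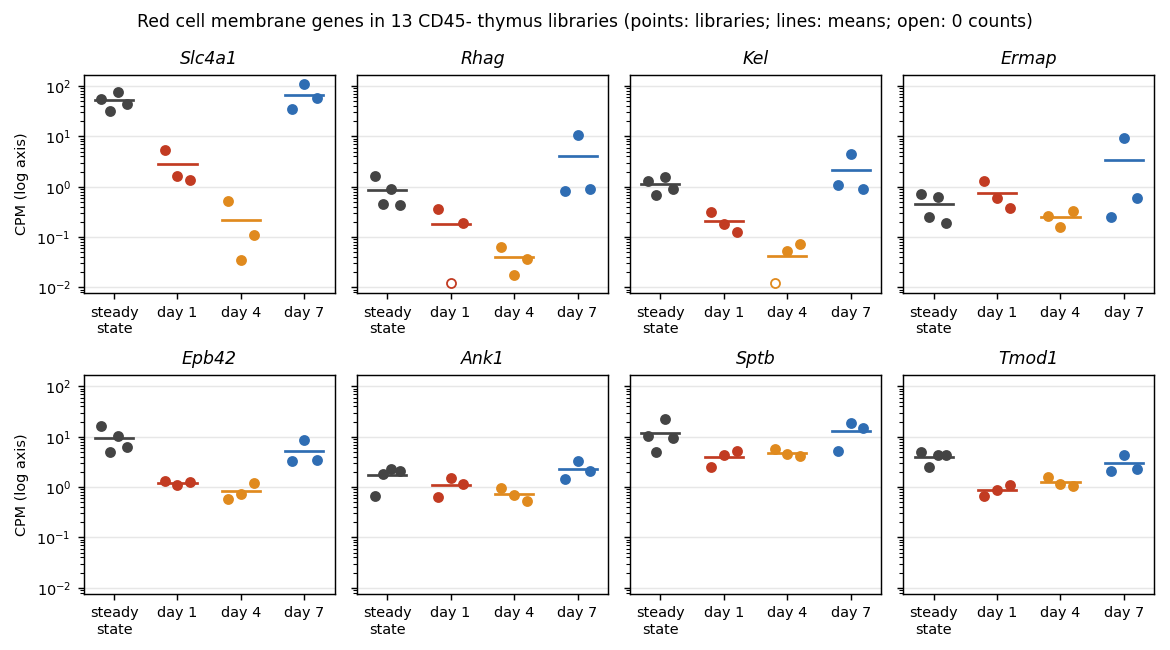
Level of each of the 8 genes in CPM, on a log axis, in the 4 steady-state libraries and the 3 libraries of each day after SL-TBI. Points are libraries, lines are means, and open points mark libraries with 0 counts. Slc4a1, Rhag, Kel, Epb42 and Tmod1 lie below the steady-state range in all libraries of days 1 and 4, and the same day 7 library, replicate 2, is the highest of day 7 in every panel.

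Of the linker proteins, Epb42 was low in every library of days 1 and 4 and Ank1 was not. Epb42 encodes a protein related to transglutaminases that binds band 3 and ankyrin. It was at 16.4, 5.05, 10.4 and 6.29 CPM at steady state, at 1.30, 1.11 and 1.24 CPM at day 1, at 0.581, 0.720 and 1.18 CPM at day 4, and at 3.32, 8.71 and 3.47 CPM at day 7. The first days were tightly grouped and well below steady state, with log2 fold changes of -2.97 ± 0.51 (SE) and -3.49 ± 0.53. Day 7 overlapped steady state with replicate 2 alone, since replicates 1 and 3 were below the lowest steady-state library, and the log2 fold change there was -0.89 ± 0.46.

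Ank1 encodes ankyrin-1, the adaptor between band 3 and the spectrin network. Its steady-state libraries held 0.658, 1.80, 2.26 and 2.08 CPM, the day 1 libraries 0.622, 1.53 and 1.17 CPM, the day 4 libraries 0.968, 0.685 and 0.537 CPM, and the day 7 libraries 1.44, 3.26 and 2.11 CPM. Every condition overlapped steady state, in which PBS day 1 replicate 2 was the lowest library. The log2 fold changes were -0.62 ± 0.49 (SE), -1.24 ± 0.50 and 0.42 ± 0.47 at days 1, 4 and 7. The exons of Ank1 share 6.37% of their bases with Gm15816, so a small part of its reads could not be assigned with certainty.

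Sptb and Tmod1 represent the skeleton itself. Sptb encodes the beta chain of red cell spectrin, and it was at 10.2, 5.0, 22.5 and 9.35 CPM at steady state, at 2.49, 4.27 and 5.13 CPM at day 1, at 5.61, 4.55 and 4.18 CPM at day 4 and at 5.17, 18.6 and 14.9 CPM at day 7. Of the libraries of days 1 and 4, only day 1 replicate 3 and day 4 replicate 1 were inside the broad steady-state range, near its lower end. The others lay below it, and the log2 fold changes were -1.57 ± 0.52 (SE) and -1.30 ± 0.52. Unlike Slc4a1, Sptb was not lower at day 4 than at day 1. Tmod1, whose product tropomodulin caps the pointed ends of actin filaments, was at 4.87, 2.48, 4.32 and 4.26 CPM at steady state, at 0.679, 0.882 and 1.11 CPM at day 1, at 1.61, 1.16 and 1.07 CPM at day 4 and at 2.13, 4.43 and 2.33 CPM at day 7. All 6 libraries of days 1 and 4 were below steady state, with log2 fold changes of -2.15 ± 0.40 and -1.65 ± 0.39. Tmod1 overlaps Tstd2 in 32.6% of its exonic bases. The paper's methods give default parameters for the counting and name no strand setting to tell these reads apart, so the level of Tmod1 may be affected.

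**Figure D2:**
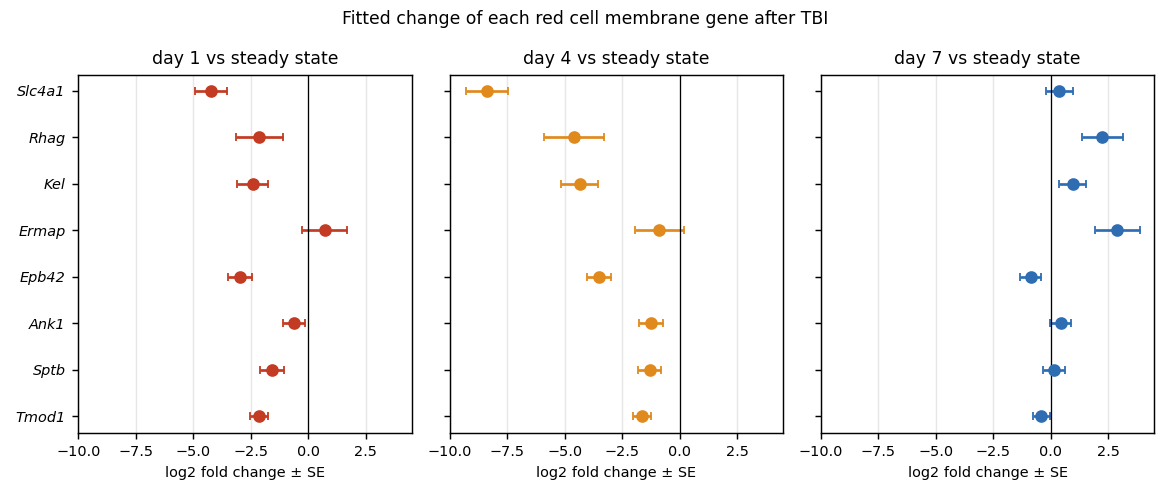
Log2 fold change against steady state with its SE for each of the 8 genes at days 1, 4 and 7, from the edgeR fit of all 13 libraries. Points left of the line at 0 are lower than at steady state, as are 7 of the 8 genes at day 1 and all 8 at day 4, and the day 4 values of Rhag and Kel rest on 4 and 7 counts.

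Counted together, 5 of the 8 genes (Slc4a1, Rhag, Kel, Epb42 and Tmod1) lay below the steady-state range in all 3 libraries at day 1, where 8.56% of all genes tested did. The same 5 lay below it at day 4, where the share of all genes was 8.22%. These are the values by which the genes were chosen, and the counts add nothing to them. The median log2 fold change over the 8 genes was -2.14 at day 1 and -2.57 at day 4, beside -0.10 and -0.13 over all genes tested. At day 7 none of the 8 was clear of the steady-state range on either side (4.67% of all genes lay below it and 2.82% above it), and the median was 0.40, beside 0.00 over all genes. Between days 4 and 1, 3 genes (Slc4a1, Kel and Ermap) were lower in all libraries at day 4, and 13.7% of all genes were. Against day 1, 6 genes were higher in all day 7 libraries (12.7% of all genes), and Ermap and Ank1 overlapped. Against day 4 the number was also 6 (12.2% of all genes), with Ermap and Sptb overlapping. The comparisons with steady state share the same 4 libraries.

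Set on a scale per kilobase of exon, so that genes could be compared with each other, the order within the group changed. At steady state Slc4a1 was first at 10.7 ± 4.00 CPM per kb (SD, n = 4), followed by Epb42 at 1.76 ± 0.945, Tmod1 at 1.01 ± 0.264 and Sptb at 0.969 ± 0.619. Kel (0.402 ± 0.141), Rhag (0.369 ± 0.247), Ank1 (0.126 ± 0.0532) and Ermap (0.0846 ± 0.0501) closed the list. Only the gap below Slc4a1 was wider than the SDs of the genes on its sides, and each of the other neighbours in this order differed by less than the larger of their SDs. At day 4 Slc4a1 was sixth at 0.0452 ± 0.0529 CPM per kb (SD, n = 3). Sptb (0.394 ± 0.0612) and Tmod1 (0.325 ± 0.0735) led instead, so that what was left of the 8 transcripts came mostly from the skeleton genes. By day 7 Slc4a1 was again first at 13.8 ± 7.55 CPM per kb.

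**Figure D3:**
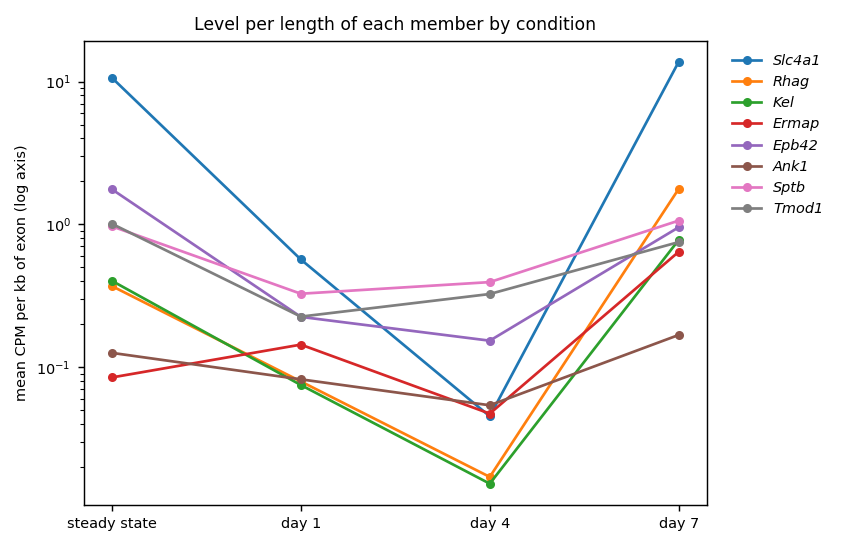
Mean level of each gene in CPM per kb of exon, on a log axis, at steady state (n = 4) and on the 3 days after SL-TBI (n = 3 each). Points are means without error bars, and lines join the means of 1 gene. Slc4a1 goes from first at 10.7 to sixth at 0.0452 at day 4 and back to 13.8 at day 7.

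The size of the day 7 mean depended on 1 library more for some genes than for others. Day 7 replicate 2 was the highest day 7 library for all 8 genes, by 22.2 times the mean of the other pair for Ermap, 12.1 times for Rhag and 4.60 times for Kel, but by 1.84 to 2.56 times for Slc4a1, Epb42, Ank1, Sptb and Tmod1. Without it, the mean of day 7 came to 90.5% of steady state for Slc4a1, 102% for Rhag, 88.0% for Kel, 94.1% for Ermap, 104% for Ank1 and 85.3% for Sptb. The mean of the 2 remaining libraries was thus near that of steady state for these 6 genes. Epb42 (35.6%) and Tmod1 (56.1%) stayed lower. With all 3 libraries the same shares were 129%, 480%, 193%, 760%, 134%, 110%, 54.2% and 74.4%, in the order given. The log2 fold changes of Kel and Ermap at day 7 changed sign without this library, to -0.14 and -0.08, and that of Rhag came to 0.07.

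Early red cell precursor genes were high in the same library. Klf1 and Gata1, the erythroid transcription factors, were at 10.1 and 5.39 CPM in day 7 replicate 2 and at 19.4 and 10.1 times the mean of the other pair. Tfrc, the transferrin receptor, was at 70.2 CPM and Hemgn at 7.83 CPM, or 5.49 and 5.16 times the other pair. Alas2, the erythroid enzyme of heme synthesis, was raised less, at 1.94 times. Thymocyte genes were highest there too: their 7 markers summed to 3335 CPM in this library and Ptprc, which encodes CD45, reached 606 CPM. They were not high in this library alone. Ptprc was at 224 CPM in day 7 replicate 3 and 21.6 CPM in replicate 1, beside 24.0 to 119 CPM at steady state. The median thymocyte sum at day 7 was 1462 CPM, above the highest steady-state sum of 538 CPM. Of the macrophage genes in day 7 replicate 2, C1qa, C1qb, Adgre1 and Cd68 were at 4.05, 4.31, 2.67 and 1.58 times the other pair. Csf1r, the macrophage marker with the highest CPM in replicate 2 (23.3 CPM), was not raised, at 0.887 times. The neutrophil genes S100a8 and S100a9 were at 4.85 and 5.47 times, although at only 2.19 and 2.64 CPM. Col1a1, a fibroblast collagen gene, was at 0.316 times. The part of these cells in the values of the 8 genes was not tested.

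**Figure D4:**
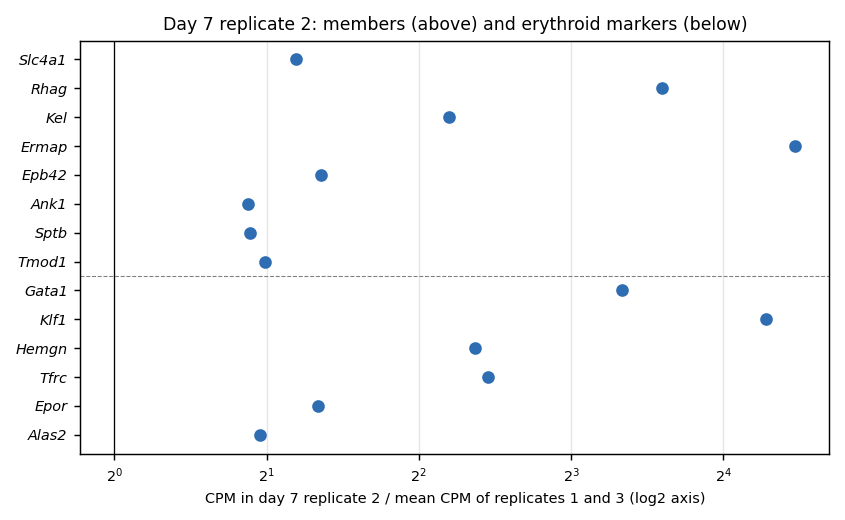
Level in day 7 replicate 2 divided by the mean of day 7 replicates 1 and 3, on a log2 axis, for the 8 genes (above the dashed line) and for 6 erythroid markers (below). All 14 points lie to the right of 1, and Ermap, Klf1, Rhag and Gata1 lie above 10.

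The erythroid markers did not all take the same course. The summed level of 6 markers (Gata1, Klf1, Alas2, Epor, Hemgn and Tfrc; Ahsp was not found by symbol) ran from 1526 to 3492 CPM at steady state, from 305 to 992 CPM at day 1, from 11.0 to 14.3 CPM at day 4 and from 244 to 725 CPM at day 7. Alas2 made up most of it, with 1510 to 3471 CPM at steady state and 3.44 to 5.74 CPM at day 4. Alas2, Hemgn and Tfrc had their lowest means at day 4, while Gata1, Klf1 and Epor had theirs at day 1, and Epor was at a mean of 3.43 CPM at day 4 and 2.82 CPM at steady state. Few counts limit this order for Gata1 and Klf1. Gata1 had 1 to 32 counts per library at steady state, 3 to 8 at day 1 and 4 to 16 at day 4. Klf1 had 8 to 28, 2 to 13 and 5 to 19. None of the 6 was at 0 in all libraries of a condition. The 8 genes summed to 47.5 to 120 CPM at steady state, 10.2 to 12.4 CPM at day 1, 7.38 to 9.62 CPM at day 4 and 49.5 to 167 CPM at day 7, a sum to which Slc4a1 gave the most at steady state. Of the 8 genes, Sptb and Tmod1 had their lowest means at day 1 and the other 6 at day 4. At day 7 all 3 libraries of Alas2 lay below its steady-state range, while the other 5 erythroid markers overlapped theirs with higher means, such as 3.72 against 0.386 CPM for Klf1 and 31.9 against 14.5 CPM for Tfrc. Those means leaned on day 7 replicate 2. Replicates 1 and 3 averaged 12.8 CPM for Tfrc, 1.52 for Hemgn and 2.83 for Epor, beside 14.5, 1.53 and 2.82 CPM at steady state. For Klf1 and Gata1 they averaged 0.521 and 0.534 CPM, beside 0.386 and 0.212 CPM at steady state. The 7 thymocyte markers summed to 164 to 538, 77.6 to 99.3, 16.1 to 26.2 and 141 to 3335 CPM in the same order of conditions. In bulk RNA, fewer red cells or precursors in the sample and less of each transcript per cell cannot be told apart, and the part of erythroid cells in these changes was not tested. Markers of the labelled stroma were present in every condition. Fibroblast genes summed to 8903 to 47350 CPM and endothelial genes to 539 to 948 CPM over all libraries. Thymic epithelial genes were higher in each day 4 library (1791 to 2507 CPM) than in any steady-state library (490 to 1673 CPM), and lay at 974 to 1609 CPM at day 1 and 434 to 798 CPM at day 7. The 5 muscle markers summed to 191 to 276, 79.1 to 257, 84.9 to 168 and 154 to 207 CPM at steady state and days 1, 4 and 7, so that each day 4 library lay below steady state. Nearly all of this was Des, the desmin gene, at means of 240 CPM at steady state and 114 CPM at day 4. The other muscle markers were low and went both ways. Ckm and Acta1 were at means of 0.176 and 0.834 CPM at steady state and 0.226 and 0.977 CPM at day 4. Ttn and Myh1 were at 3.03 and 0.569 CPM at steady state and 0.921 and 0.350 CPM at day 4. The part of muscle cells in the values of Ank1, Sptb and Tmod1 was not tested, nor was that of thymic epithelial cells.

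The rest of the red cell membrane was read from a list of 31 other genes, of which 30 passed the filter on low counts. This list and that of the paralogs were chosen with earlier results of these data known. Calls among them are therefore not independent evidence. Icam4, the Landsteiner-Wiener blood group gene, had 0 counts in all 13 libraries. Of the 30 genes, 14 were listed as leaning to red cells, a label that does not limit them to red cells. At day 1, 0.671% of all genes fell and 2.35% changed. Among the 14 genes, 2 fell at day 1 (edgeR quasi-likelihood test, Benjamini-Hochberg adjusted p of 0.05 or less). They were Epb41, whose product strengthens the junction of spectrin and actin (log2 fold change -2.79 ± 0.51, SE, adjusted p = 0.0102), and Tspo2, an erythroid relative of the translocator protein (-2.90, adjusted p = 0.0419). The same 2 genes fell at day 4, where 0.24% of all genes fell. No gene of this list rose at either day in edgeR.

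Epb41 had the highest CPM of these genes, with steady-state libraries at 675, 244, 874 and 420 CPM, day 1 libraries at 109, 63.5 and 67.4 CPM and day 4 libraries at 33.2, 25.0 and 32.4 CPM. All 6 libraries of days 1 and 4 lay below the steady-state range, and the log2 fold change at day 4 was -4.20 ± 0.55 (SE, adjusted p = 0.00392 in edgeR). Tspo2 was at 5.22, 2.83, 5.16 and 3.15 CPM at steady state and at 1.13, 0.186 and 0.293 CPM at day 1. It had 2 counts in the 3 day 4 libraries together, so that the ratio of steady state to day 4 was 272 (exact 95% interval 74.9 to 2247, counting error only), with an adjusted p of 0.00318 in edgeR. The day 1 calls were sensitive to leaving out single libraries: neither gene passed the threshold without day 1 replicate 2 or without day 1 replicate 3. The fold changes kept their direction. As single libraries were left out, the log2 fold change at day 1 ran from -3.07 to -2.40 for Epb41 and from -4.03 to -2.53 for Tspo2. Tspo2 also missed it at day 1 when PBS day 1 replicate 2, either PBS day 7 library, day 4 replicate 1 or 3, or day 7 replicate 3 was left out. At day 4 Epb41 missed it without day 4 replicate 2.

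The other 12 genes listed as leaning to red cells did not pass the threshold in edgeR at day 1 or day 4. DESeq2 called Abcb6 higher at day 1, and Rhd and Kcnn4, a calcium-gated potassium channel of the red cell, lower at day 4. Abcb6, a porphyrin transporter, was at a mean of 3.41 CPM at day 1 and 1.76 CPM at steady state, with all 3 day 1 libraries above steady state (log2 fold change 0.95 ± 0.29, SE, adjusted p = 0.121 in edgeR). Among them the highest CPM belonged to Mpp1, Gypc and Slc43a1, at means of 110, 88.2 and 45.7 CPM at steady state. Their means at day 4 were 107, 100 and 62.6 CPM. Gypc, a sialoglycoprotein of the skeleton junction that other cells make as well, had log2 fold changes of 0.62 ± 0.23 (SE) and 0.19 ± 0.23. Rhd, the Rh protein that sits beside the Rhag product, had -1.14 ± 0.60 and -2.33 ± 0.65, with adjusted p of 0.355 and 0.175 in edgeR and a call in DESeq2 at day 4 only. The median over the 14 genes was -0.50 at day 1 and -0.49 at day 4, beside -0.10 and -0.13 over all genes.

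At day 7 no gene of the whole list passed the threshold against steady state in edgeR, where 0.005% of all genes did. Of the 30 genes, 4 had an unadjusted p under 0.05 in edgeR, as did 2691 of the 19984 genes tested. DESeq2 called 1 of the 30, Rhd (higher). Rhd was at a mean of 3.68 CPM at day 7 and 0.690 CPM at steady state (log2 fold change 2.42 ± 0.55, SE, edgeR adjusted p = 0.117). From day 1 to day 7, 3 genes of the list rose in edgeR (3.68% of all genes did): Rhd, Tspo2 and Kcnn4. From day 4 to day 7, 5 rose in edgeR (2.77% of all genes), which adds Epb41 and the urea transporter Slc14a1 to the same 3. Between days 1 and 4, Tspo2 fell in edgeR (1.07% of all genes fell), and DESeq2 also called Actb lower and Slc29a1 higher. Tspo2 and Kcnn4 were near the threshold from day 1 to day 7, with adjusted p of 0.0463 and 0.0479 in edgeR. Leaving out single libraries gave 1 to 6 genes called from day 1 to day 7 and 0 to 5 from day 4 to day 7 (0 without day 4 replicate 2), and the call of Tspo2 between days 1 and 4 was lost without day 1 replicate 1 or any 1 day 4 library.

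**Figure D5:**
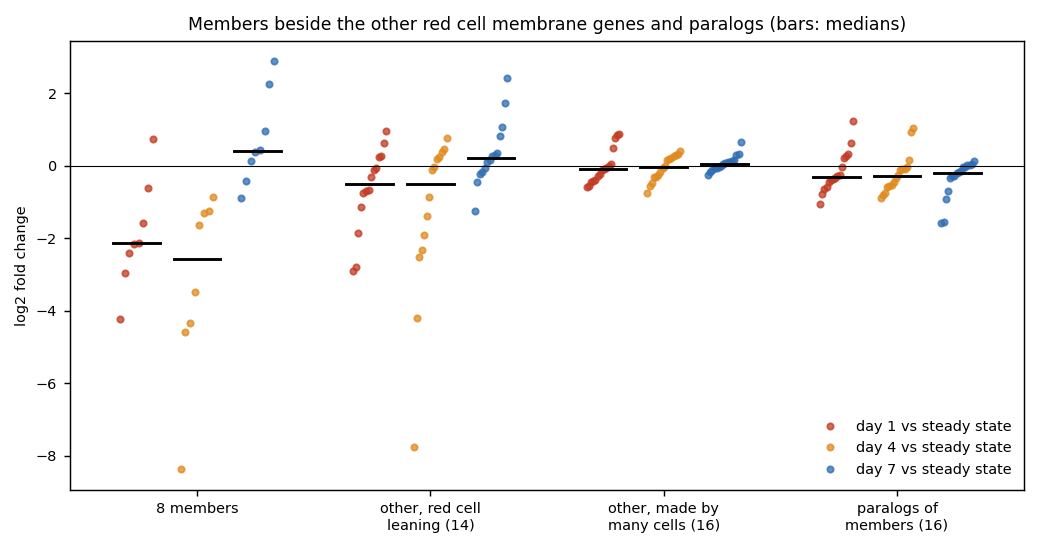
Log2 fold change against steady state at days 1, 4 and 7 for the 8 genes, for 14 other genes listed as leaning to red cells, for 16 membrane genes made by many cells and for 16 paralogs of the 8 genes. Points are genes and bars are medians over each list. The medians of the 8 genes are -2.14, -2.57 and 0.40, while those of the genes made by many cells stay near 0, and the lowest point of the 14 genes at day 4 (Tspo2) rests on 2 counts.

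The 16 membrane and skeleton genes that many cell types make gave no call in edgeR in any of the 6 comparisons. Of all genes, 2.35%, 0.29% and 0.005% changed at days 1, 4 and 7 against steady state, and 1.43%, 8.13% and 3.9% changed in the comparisons of day 4 with day 1, day 7 with day 1 and day 7 with day 4. Unadjusted p under 0.05 were found for 3444, 2602 and 2691 of the 19984 genes tested at days 1, 4 and 7 against steady state. In the other comparisons they were found for 2729, 4784 and 3735. For the 16 genes the numbers were 4, 1 and 0 against steady state and 4, 4 and 2 in the others. DESeq2 called 1 (Actb, higher at day 1), 0, 0, 2, 2 and 0 in the same order. Their medians against steady state were -0.09, -0.04 and 0.06. Actb, Bsg, Aqp1 and Add3 had the highest CPM at steady state, at means of 1233, 738, 698 and 571 CPM.

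Paralogs, which are relatives of the 8 genes and need not do the same work, were read from the same libraries. None was listed for Ermap. Tmod3, the broadly made tropomodulin, was at a mean of 318 CPM at steady state and 312, 293 and 320 CPM at days 1, 4 and 7. Sptbn1, the spectrin beta chain of other cells, was at 687, 397, 373 and 592 CPM, and Slc4a2, the broadly made anion exchanger, at 95.4, 111, 75.8 and 98.3 CPM. None of these 3 passed the threshold against steady state in edgeR at any day (adjusted p from 0.188 to 0.998). Of the 16 paralogs, Tmod2 fell at day 1 (log2 fold change -1.07, adjusted p = 0.0282 in edgeR, and also called by DESeq2), and none passed at day 4 or day 7. At those days 4 and 2 paralogs had an unadjusted p under 0.05, as did 2602 and 2691 of all genes tested. DESeq2 called 0 paralogs there. Rhbg was lower at day 7 than at day 4 (-2.51, adjusted p = 0.0455 in edgeR, where 1.13% of all genes fell). The medians of the paralogs were -0.31, -0.30 and -0.19 at days 1, 4 and 7.

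Within the group the genes did not all move as one. Over the 13 libraries, the 28 pairs of genes had correlations of log2 levels between 0.29 and 0.94 with a median of 0.71. The libraries share their conditions, so these values include the common course through the 4 conditions. Once the mean of each condition was taken out, the median was 0.58 (-0.20 to 0.96). The closest pairs were then Rhag and Ermap (0.96), Kel and Ermap (0.94) and Rhag and Kel (0.94), the 3 genes most raised in day 7 replicate 2. Ank1 and Epb42, both linkers, had the lowest value of -0.20.

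Of 14590 genes with a mean of at least 1 CPM, those whose log2 levels over the 13 libraries were most like the mean profile of the 8 genes were Pknox1 (Pearson r = 0.97), E2f2, Ptpre, Car2, A130071D04Rik, AI662270, Cep152, Cd27, Rgs14 and Cd5 (0.95). Car2, the carbonic anhydrase that is abundant in red cells, was at means of 61.0, 8.96, 5.55 and 78.3 CPM at steady state and days 1, 4 and 7. E2f2 was at 21.9, 3.27, 2.10 and 44.2 CPM. Cd27 and Cd5, which mark thymocytes, were on the same list, at 16.2 and 12.9 CPM at steady state and 61.6 and 33.1 CPM at day 7. The list thus held genes known from red cells and from thymocytes side by side.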

How the data were processed

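Bulk RNA-seq of CD45- thymic stroma cells was analysed in 13 libraries. Per the submitters' notes and methods, the authors used Trimmomatic 0.38 for trimming, STAR 2.7.0e for alignment (GRCm38.p5) and featureCounts 1.6.3 for counting. The deposited values are raw counts, and exonic lengths deposited beside them served for levels per kilobase. Total counts ran from 15721866 to 52056896 per library. Groups came from the sample labels, and the steady-state columns name PBS controls by day. All library columns were used.

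Libraries were fitted together with edgeR 4.0.16 (R 4.3.3; TMM, filterByExpr() by condition, quasi-likelihood test), and genes with a Benjamini-Hochberg adjusted p of 0.05 or less were counted as changed. The study's methods use the same filter and name no test between conditions for these libraries. The scripts were tested on simulated data. Ratios of summed counts have exact conditional binomial intervals. Members and lists were chosen with earlier results of these data known, so the 8 genes have no p-values. Of the listed genes, 2 are not reported here and enter no list count, median or sum. Named genes are the 8, every listed gene past the threshold against steady state, the most abundant genes of each list and the 10 genes most like the 8; Rhd, Abcb6, Slc29a1, Tmod3 and Slc4a2, the called genes of the other comparisons and the markers of day 7 replicate 2 were named after their values were seen. Likeness and correlations used log2(CPM + 0.5). Motifs and promoters were read from a RefSeq table. Alternatives were another normalization (RLE), DESeq2 1.42.0, no or a stricter filter, 2 conditions at a time, a replicate block, each library left out and, added after seeing the data, the family of the tag in the column names as a covariate.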

Additional observations from a re-analysis of the deposited data

How the results depend on the processing

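The median log2 fold change of the 8 genes kept its direction at days 1 and 4 against steady state, and from days 1 and 4 to day 7, under all 20 alternatives run. It moved by more than the spread between libraries (0.55) under a stricter filter that asked for 10 counts or more in each library and that only Ank1, Sptb and Tmod1 pass. There it was -1.58 at day 1, -1.33 at day 4 and 1.43 from day 4 to day 7, and it was reversed from day 1 to day 4, at 0.25. With only the 2 conditions compared in the fit it was -0.49 from day 1 to day 4. Leaving out single libraries gave 1.38 to 2.51 from day 1 to day 7 and 1.58 to 3.58 from day 4 to day 7, each lowest without day 7 replicate 2, without which the median against steady state at day 7 was -0.12. Kel and Ermap at day 7 ranged from -0.14 to 1.30 and from -0.085 to 3.43 as single libraries were left out, both lowest and reversed without that one, and Slc4a1 and Sptb also crossed 0 (-0.10 to 0.68 and -0.20 to 0.65). Slc4a1 moved from -3.89 to -5.12 at day 1 (without day 1 replicate 1) and from -7.68 (without day 4 replicate 2) to -9.31 (without day 4 replicate 1) at day 4.

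For the other membrane genes called, DESeq2 gave 4 at day 1, 4 at day 4, 1 at day 7, 3 from day 1 to day 4 and 8 from day 1 to day 7, and no filter gave 1 at day 7 and 5 from day 1 to day 7. The stricter filter, which 26 of the 31 genes pass, gave 1 at day 1, 1 at day 4, 0 from day 1 to day 4, 0 from day 1 to day 7 and 1 from day 4 to day 7. Only the 2 conditions compared gave 1 at day 1, 0 from day 1 to day 4 and 1 from day 1 to day 7, and the tag family as a covariate, chosen after seeing the data, gave 0 from day 1 to day 4. Leaving out single libraries gave 0 to 4 at day 1 (0 without day 1 replicate 2 or 3, 1 without PBS day 1 replicate 2, PBS day 7 replicate 1 or 2, day 4 replicate 1 or 3, or day 7 replicate 3, and 4 without PBS day 4 replicate 2), 1 to 2 at day 4 (1 without day 4 replicate 2), 0 to 1 at day 7 (1 without day 7 replicate 1) and 0 to 1 from day 1 to day 4 (0 without day 1 replicate 1 or any 1 day 4 library). It gave 1 to 6 from day 1 to day 7 (1 without PBS day 7 replicate 1, day 1 replicate 2 or 3, day 4 replicate 2 or 3, or day 7 replicate 2 or 3, 5 without PBS day 1 replicate 2 or PBS day 4 replicate 2, and 6 without day 7 replicate 1). From day 4 to day 7 it gave 0 to 5 (0 without day 4 replicate 2, 1 without day 4 replicate 3, 2 without day 7 replicate 2, and 3 without PBS day 7 replicate 1, day 1 replicate 2 or 3, or day 7 replicate 3). The causes were not tested.

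A block for the replicate number left 1 other membrane gene at day 1, 0 from day 1 to day 4, 1 from day 1 to day 7 and 2 from day 4 to day 7, and of all genes it left 209 at day 1 and 27 at day 4. The numbers did not pair the libraries, since deviations from the condition means correlated at -0.18 on average over 9 pairs with the same number and at 0.08 over 18 other pairs. Over all genes tested, 469, 58 and 1 were called at days 1, 4 and 7 in edgeR and 1399, 645 and 1081 in DESeq2. For days 1 to 4, 1 to 7 and 4 to 7 they were 285, 1625 and 779, against 960, 2940 and 1919 in DESeq2. The alternatives that kept all libraries, DESeq2 included, gave between 209 and 1399 at day 1, 20 and 645 at day 4, 0 and 1081 at day 7, 147 and 960 from day 1 to day 4, 655 and 2940 from day 1 to day 7, and 95 and 1919 from day 4 to day 7. Leaving out single libraries gave 252 to 797, 19 to 226 and 0 to 622 at days 1, 4 and 7. RLE scaling moved the median of all genes by at most 0.08. At day 4, few counts limit the sizes given for Rhag, Kel and Tspo2.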
